A study of Mus musculus with 18 samples.

Results

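The AP-1 transcription factors and their relative Atf3 were followed between the nuclear and cytoplasmic RNA of adult mouse muscle fibers. The genes were taken by name: Fos, Fosb, Fosl1, Fosl2, Jun, Junb, Jund and Atf3. These 8 genes, of 35527 gene names on the array, were measured by 9 probes of 55681, because Fosl2 has 2 probes. The Fos probe is printed as 10 spots on each array and every other one as 1 spot. On mm9, the build of the array design, the probes of the single-probe members lie at chr12:86817900-86817959 (Fos), chr7:19888168-19888227 (Fosb), chr19:5455496-5455555 (Fosl1), chr4:94716928-94716987 (Jun), chr8:87501881-87501940 (Junb), chr8:73224436-73224495 (Jund) and chr1:192994547-192994606 (Atf3).

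Myofibers of EDL (extensor digitorum longus), of TA (tibialis anterior) and of soleus came from untreated female CD1 mice, an outbred strain, at 3 months of age. The muscles were digested with collagenase, intact fibers were picked by hand, and each sample is a pool of 5 to 10 fibers lysed in detergent and spun into a nuclear pellet and a cytoplasmic supernatant. There are 18 samples, 3 for each of the 6 combinations of muscle and fraction, each hybridised to 1 single-colour Agilent array. Each EDL and soleus pool mixes fibers of 2 mice, the same pairs of mice for both muscles and both fractions. TA pools come from 1 or 2 mice, and 2 of the TA cytoplasm pools share a mouse. By the labels the 2 TA fractions come from partly different mice. TA cytoplasm replicate 3 is from mouse 9 alone and TA nuclei replicate 3 from mouse 3 alone. All samples went through the same digestion, and no sample of undigested muscle was analysed here.

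AP-1 is a dimer: Fos proteins form no stable dimers among themselves and pair with a Jun protein, while Jun proteins can also pair with each other, and Atf3 pairs with Jun proteins or with itself. Most of these genes are immediate early genes, transcribed within minutes of a stimulus from factors already present in the cell, and their mRNAs are short-lived because AU-rich elements recruit decay factors. In muscle they are known to respond to contraction, stretch, injury and tissue handling. Jund is the member known for steady expression in resting cells.

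The promoters are shown of those members higher in nuclei in which a searched motif was found, so that the matches can be read in place. The 5 sequences are the 150 bases before the RefSeq start site in GRCm38.p6, in the direction of transcription, and capitals mark matches to TGACG (the core of the cAMP response element), TGACATCA (the Jun promoter's AP-1-like element), TATAAA or CCAAT on either strand.
Fos, chr12:85473740-85473889, plus strand: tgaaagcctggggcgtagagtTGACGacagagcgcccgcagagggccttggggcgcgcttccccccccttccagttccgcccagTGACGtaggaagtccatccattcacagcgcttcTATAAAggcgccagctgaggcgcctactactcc
Fosb, chr7:19310046-19310195, minus strand: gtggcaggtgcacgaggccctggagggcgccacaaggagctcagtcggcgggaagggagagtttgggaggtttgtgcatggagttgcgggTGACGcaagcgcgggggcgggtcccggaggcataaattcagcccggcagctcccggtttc
Jun, chr4:95052223-95052372, minus strand: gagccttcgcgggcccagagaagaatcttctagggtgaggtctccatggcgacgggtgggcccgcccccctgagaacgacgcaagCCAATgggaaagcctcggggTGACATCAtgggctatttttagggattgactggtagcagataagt
Junb, chr8:84978749-84978898, minus strand: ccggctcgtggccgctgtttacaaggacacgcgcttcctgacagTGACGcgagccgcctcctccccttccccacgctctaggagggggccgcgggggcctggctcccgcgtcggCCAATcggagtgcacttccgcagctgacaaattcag
Atf3, chr1:191183334-191183483, minus strand: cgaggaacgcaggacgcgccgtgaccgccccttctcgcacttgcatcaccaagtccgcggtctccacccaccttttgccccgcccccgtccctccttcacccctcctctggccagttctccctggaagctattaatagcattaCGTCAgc

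The search covered the 250 bases before the start of 7 members, the Fosl1 promoter not being among the sequences used, and of 32851 mouse promoters. TGACG lay in 4 of the 7 (Fos, Fosb, Junb and Atf3) and in 17.8% of all promoters, and in Fos it lay at -129 and at -66 from the start. The Fosl2 and Jund windows held none of the motifs searched. TATAAA was found in Fos alone, at -33, and in 12.4% of all promoters. TGACATCA was found in Jun alone, at -45, and in 2.93% of all promoters, and CCAAT in Jun and Junb and in 33.8% of all promoters. The full cAMP response element TGACGTCA, which holds TGACG on both strands, the AP-1 site TGANTCA and the CArG box bound by serum response factor matched none of the 7 windows, against 1.55%, 6.75% and 1.47% of all promoters. A match of letters, or the lack of one, describes the 250-base window only, and bases further upstream were not searched.

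Values are log2 of the scanner's background-subtracted intensity after quantile normalisation over the 18 arrays, so they rank the same probe between samples but not one gene against another. A difference counted as passing the test at an adjusted p below 0.05 in limma, adjusted over all probes tested. Over the 3 muscles, 28296 of 40541 probes (69.8%) differed between nuclei and cytoplasm, 31.2% being higher in nuclei and 38.6% lower, so a single call says little in this comparison. All arrays were brought to one distribution, so the values give the makeup of each fraction and not molecules per fiber. With 75th percentile scaling 35.9% of the called probes were higher in nuclei and without scaling 70.1%, against 44.8% here. As in any bulk sample, fewer cells of a type and less RNA per cell cannot be told apart.

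All 13 myofiber markers were well above background on all 18 arrays. The slow myosin Myh7 was 3.52 log2 units higher in soleus than in EDL nuclei (adjusted p = 4.11e-04), and the fast myosin Myh4 differed by -3.92 (adjusted p = 0.0113). All 5 RNAs known to stay in the nucleus were higher in nuclei over the 3 muscles, by 2.23 to 4.38, among them Neat1 (2.78) and Malat1 (2.71). In single muscles 5 of the 5 passed in EDL (median 3.15) and in soleus (median 3.13), and 4 in TA (median 1.72). Nuclear samples were closer to each other than cytoplasmic ones. Over the 35528 probes with a value on all 18 arrays, the median SD was 0.11 to 0.15 against 0.25 to 0.40. EDL and soleus cytoplasm and 1 TA cytoplasm sample lay on slide 1, EDL and soleus nuclei on slide 2, 1 TA cytoplasm sample on slide 3, and the TA nuclei with the remaining TA cytoplasm sample on slide 4.

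**Figure D1:**
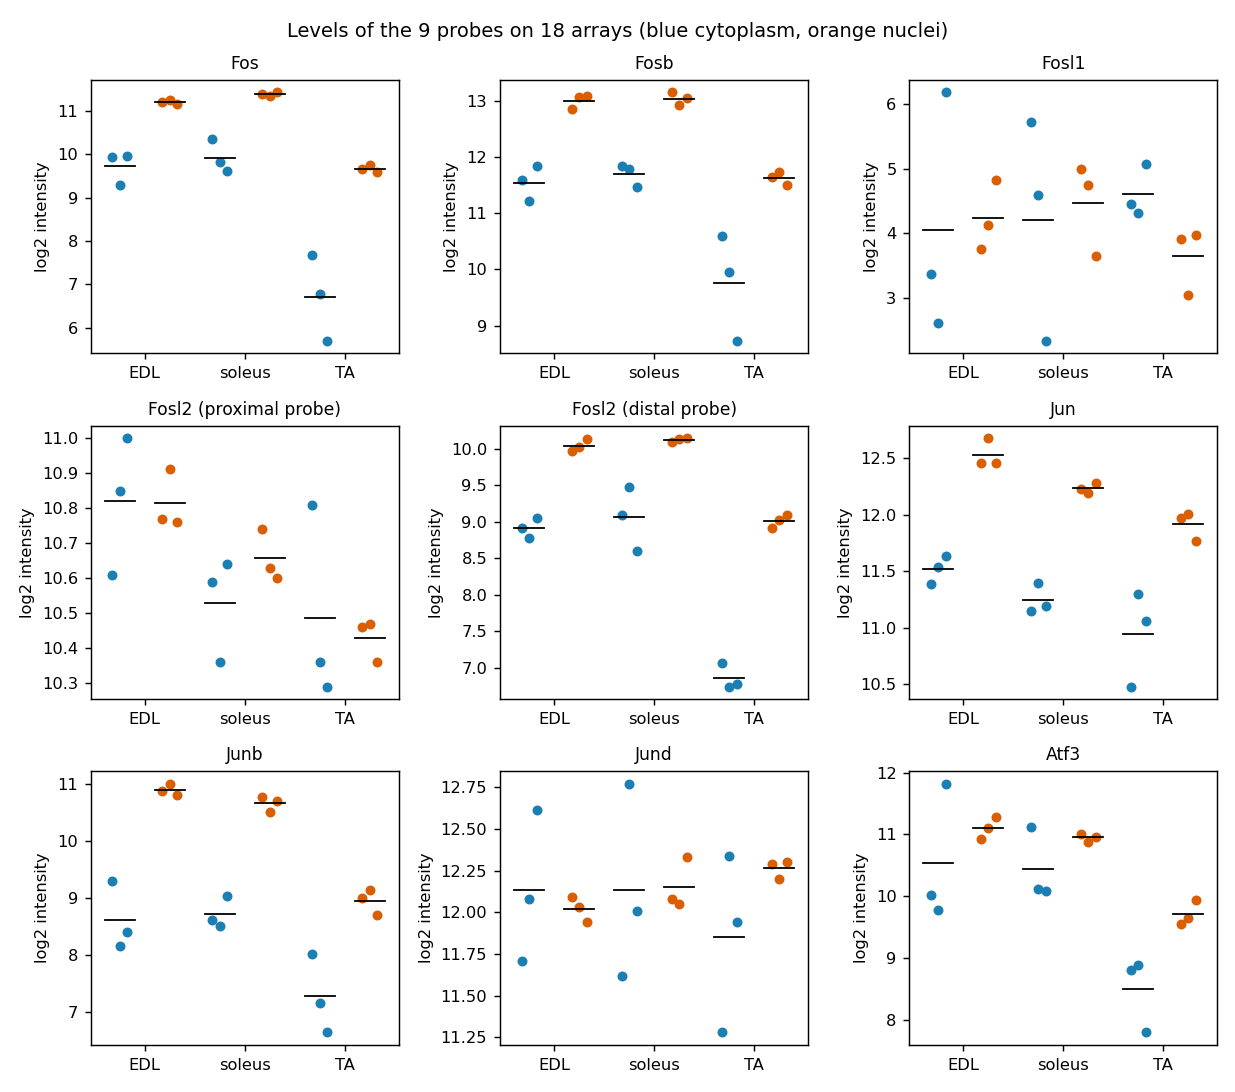
Level of each of the 9 probes (log2 intensity, y axis, with its own scale in each panel) in the 3 muscles (x axis). Blue points are cytoplasm arrays, orange points nuclear arrays, and black lines group means (3 arrays each): Fos, Fosb, Jun, Junb and the distal Fosl2 probe are higher in nuclei in each muscle with no overlap, while the Jund and proximal Fosl2 points overlap between fractions in each muscle, and those of Fosl1 in EDL and soleus.

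Between fractions, 6 of the 9 member probes were higher in nuclei over the 3 muscles and 0 were lower, with a median difference of 0.99 over the 9 probes against -0.08 over all probes tested. The probes that rose were those of Fos, Fosb, Junb, Jun and Atf3 and 1 of the 2 Fosl2 probes. In single muscles 5 probes passed in EDL, where 46.6% of all probes were called, 20.0% higher in nuclei and 26.5% lower. In soleus 5 passed against 40.3% called, 18.7% higher and 21.7% lower, and in TA 6 passed against 52.7% called, 19.2% higher and 33.5% lower. The probes of Fosl1 and Jund and the other Fosl2 probe did not pass in any muscle.

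Fos, the founding Fos protein and the textbook immediate early gene, showed the widest range of levels. In EDL its 3 cytoplasm samples read 9.94, 9.29 and 9.96 and its 3 nuclear samples 11.20, 11.25 and 11.15. In soleus the cytoplasm read 10.34, 9.81 and 9.62 and the nuclei 11.38, 11.35 and 11.43. In TA the cytoplasm read 7.69, 6.77 and 5.70 and the nuclei 9.65, 9.75 and 9.60. Nuclei and cytoplasm did not overlap in any muscle, and the nuclear samples of a muscle lay within a narrow band while the TA cytoplasm samples spread widely. Nuclei exceeded cytoplasm by 1.47 in EDL (2.77-fold, SE 0.36, adjusted p = 0.00376), by 1.46 in soleus (2.76-fold, adjusted p = 0.00479) and by 2.95 in TA (7.71-fold, adjusted p = 1.62e-05). Ordered by mean level, soleus nuclei (11.39) and EDL nuclei (11.20) came first and did not differ in the test, soleus cytoplasm (9.92) and EDL cytoplasm (9.73) followed and did not differ either, TA nuclei (9.66) fell within the range of EDL cytoplasm, and TA cytoplasm (6.72) was last.

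The repeated spots show how closely Fos was read within an array, which leaves out the error of extraction, labelling and hybridisation. Within an array the SD between spots, pooled over the 3 arrays of a group, was 0.07 to 0.17. On single arrays it was 0.04 to 0.21. Between the 3 arrays of a group the SD of the spot means was 0.38 in EDL cytoplasm, 0.37 in soleus cytoplasm and 1.00 in TA cytoplasm, which is 4.78, 3.82 and 5.91 times the SD between spots. Between nuclear arrays it was 0.05, 0.04 and 0.07, at 0.477, 0.543 and 1.05 times the SD between spots. Each array value is a mean over its spots, so these ratios describe the 2 spreads and are not a test.

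**Figure D2:**
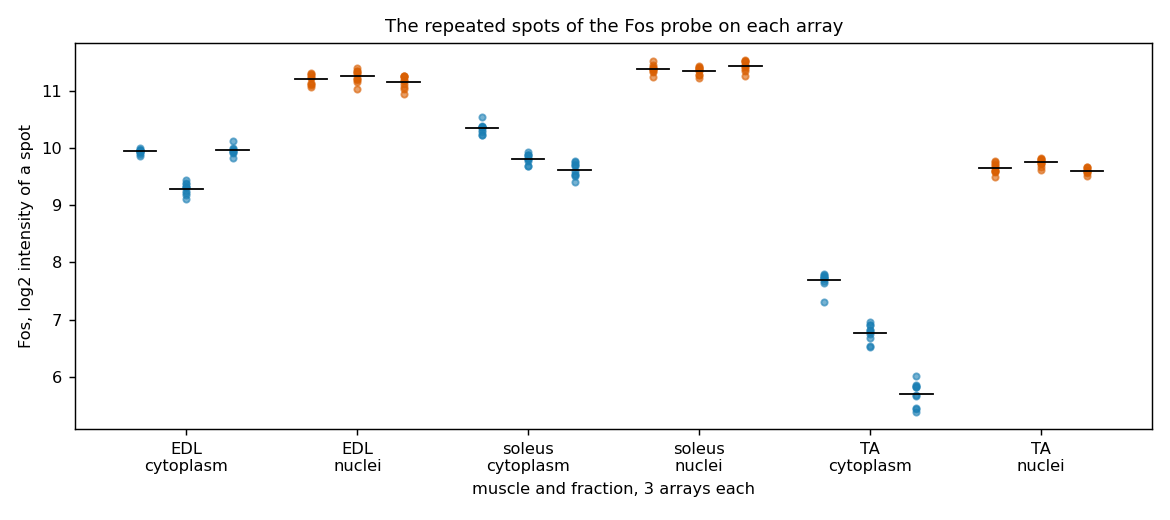
Log2 intensity of the spots of the Fos probe (y axis) on each of the 18 arrays (x axis, 3 arrays for each muscle and fraction). Points are spots, blue for cytoplasm and orange for nuclei, and black lines array means: spots of 1 array lie close together, and the 3 TA cytoplasm arrays, with means of 7.69, 6.77 and 5.70, lie apart.

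Fosb, which encodes another Fos protein, had 11.59, 11.21 and 11.83 in EDL cytoplasm and 12.85, 13.06 and 13.09 in EDL nuclei. Soleus cytoplasm read 11.84, 11.79 and 11.47 and soleus nuclei 13.15, 12.92 and 13.04. TA cytoplasm read 10.60, 9.96 and 8.73 and TA nuclei 11.64, 11.73 and 11.50. The fractions did not overlap in any muscle. The difference was 1.46 in EDL (adjusted p = 0.00237), 1.34 in soleus (adjusted p = 0.00531) and 1.86 in TA (adjusted p = 3.16e-04), and 1.55 over the 3 muscles (2.93-fold, SE 0.19).

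Fosl1, which encodes the Fos-related factor Fra-1, was near background. It was well above background on 0 to 2 of the 3 arrays of each group and on none of the 3 TA nuclei arrays. Its levels lay between 2.33 and 6.19 and the fractions overlapped in EDL and soleus, while in TA the nuclei (3.04 to 3.98) lay below the cytoplasm (4.32 to 5.07) with a difference of -0.97 (adjusted p = 0.340). The difference over the 3 muscles was -0.18 with a 95% interval of -1.21 to 0.84 (adjusted p = 0.749).

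Fosl2, which encodes Fra-2, gave different answers from its 2 probes. Both match the same transcript, the proximal one starting at base 738 (mm9 chr5:32455088-32455147) and the distal one at base 5726 (mm9 chr5:32460076-32460135). Their positions do not overlap, and the first 30 bases of each probe are shown.
Fosl2 proximal probe: gattgctgagctgcagaaggagaaggagaa
Fosl2 distal probe: gctatggaggaaagaacatattaaaaactt
The distal probe read 8.92, 8.78 and 9.05 in EDL cytoplasm and 9.97, 10.02 and 10.13 in EDL nuclei. It read 9.10, 9.48 and 8.60 in soleus cytoplasm and 10.09, 10.14 and 10.15 in soleus nuclei. In TA it read 7.06, 6.74 and 6.78 in cytoplasm and 8.91, 9.03 and 9.10 in nuclei. The distal signal was higher in nuclei without overlap in each muscle, by 1.12 in EDL (adjusted p = 3.44e-04), 1.07 in soleus (adjusted p = 6.74e-04) and 2.15 in TA (adjusted p = 2.06e-06). The proximal probe read 10.61 to 11.00 in EDL cytoplasm and 10.76 to 10.91 in EDL nuclei, 10.36 to 10.64 and 10.60 to 10.74 in soleus, and 10.29 to 10.81 and 10.36 to 10.47 in TA. Its fractions overlapped in each muscle, and its difference over the 3 muscles was 0.02 with an interval of -0.19 to 0.23 (adjusted p = 0.869).

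The contrast between the Fosl2 probes was tested by itself, a test chosen after seeing the data. Within each array the distal log2 value minus the proximal one was -2.07 to -1.70 in EDL cytoplasm and -0.89 to -0.63 in EDL nuclei. It was -2.03 to -0.89 in soleus cytoplasm and -0.64 to -0.45 in soleus nuclei, and -3.75 to -3.52 in TA cytoplasm and -1.55 to -1.26 in TA nuclei. The nuclear values were above the cytoplasmic ones in each muscle without overlap. The mean shift over the 3 muscles was 1.43. An exact two-sided permutation of the fraction labels within each muscle (8000 relabelings) gave p = 2.50e-04, the smallest this design can give. Slide and fraction coincide in EDL and soleus, so for those muscles the permutation cannot tell them apart.

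Jun, the central partner of Fos proteins, had 11.39, 11.54 and 11.64 in EDL cytoplasm and 12.46, 12.68 and 12.46 in EDL nuclei. Soleus read 11.15, 11.40 and 11.19 in cytoplasm and 12.23, 12.19 and 12.28 in nuclei, and TA 10.48, 11.30 and 11.06 in cytoplasm and 11.97, 12.01 and 11.77 in nuclei. The fractions did not overlap, and the 3 muscles gave almost one difference: 1.01 in EDL (adjusted p = 6.77e-04), 0.98 in soleus (adjusted p = 0.00112) and 0.97 in TA (adjusted p = 7.64e-04). The fold over the 3 muscles was 1.98.

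Junb, an immediate early Jun protein, had 9.30, 8.15 and 8.41 in EDL cytoplasm and 10.88, 11.00 and 10.80 in EDL nuclei. Soleus read 8.62, 8.50 and 9.04 in cytoplasm and 10.77, 10.51 and 10.69 in nuclei, and TA 8.02, 7.16 and 6.64 in cytoplasm and 8.99, 9.13 and 8.70 in nuclei. The fractions did not overlap in any muscle, and Junb had the largest fraction difference of the members in EDL (2.28, 4.84-fold, adjusted p = 5.93e-05) and in soleus (1.94, 3.84-fold, adjusted p = 3.03e-04). In TA the difference was 1.67 (adjusted p = 5.85e-04).

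Jund, the steadily expressed Jun protein, was 11.94 to 12.33 in nuclei and 11.28 to 12.77 in cytoplasm over the 3 muscles. The difference over the 3 muscles was 0.11 with an interval of -0.27 to 0.48 (adjusted p = 0.600), and the fractions overlapped in each muscle.

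Atf3, the stress-induced partner of Jun proteins, rose less clearly. EDL cytoplasm read 10.01, 9.78 and 11.82 against 10.93, 11.11 and 11.28 in EDL nuclei, and soleus cytoplasm 11.12, 10.12 and 10.08 against 11.01, 10.88 and 10.96 in soleus nuclei. In each of these muscles 1 cytoplasm sample lay above all 3 nuclear samples. TA cytoplasm read 8.81, 8.88 and 7.79 against 9.54, 9.65 and 9.94 in TA nuclei, with no overlap. The difference was 0.57 in EDL (adjusted p = 0.305), 0.51 in soleus (adjusted p = 0.375) and 1.22 in TA (adjusted p = 0.0302), and 0.77 over the 3 muscles (adjusted p = 0.0143). Without EDL cytoplasm replicate 3, at 11.82, the EDL difference was 1.21 and passed the test (adjusted p = 0.0118), and without EDL cytoplasm replicate 2 or 1 it was 0.19 or 0.31. The soleus difference ranged from 0.33 to 0.85 without single samples and did not pass in any of these fits. In TA the call was lost without TA cytoplasm replicate 3 and without TA nuclei replicate 2 or 3, at differences of 0.86, 1.24 and 1.10.

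**Figure D3:**
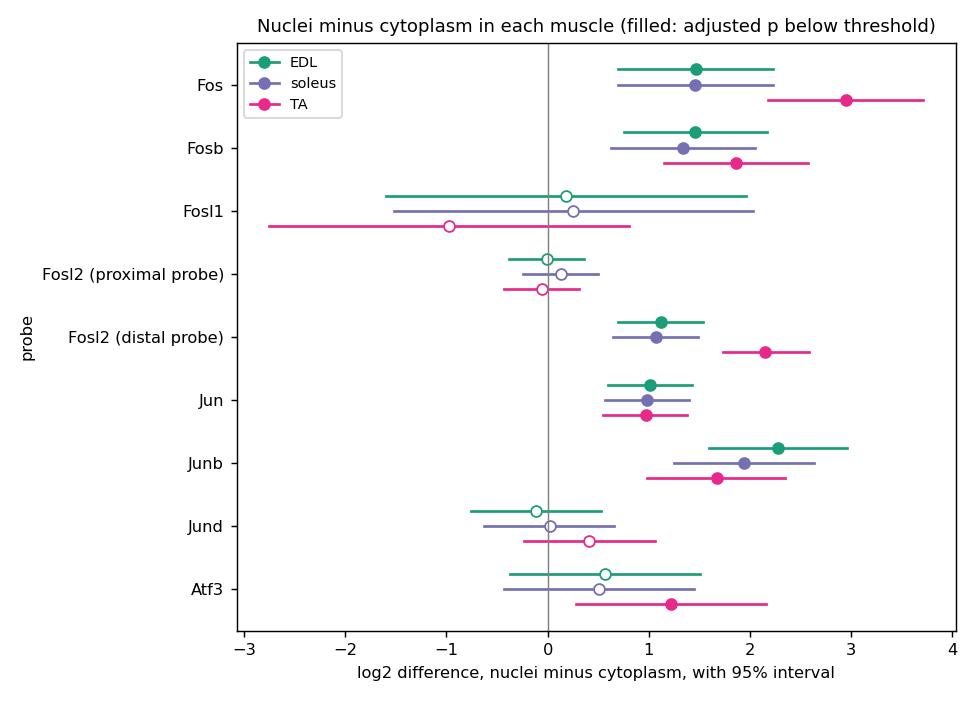
Nuclei-minus-cytoplasm difference (x axis, log2, with 95% interval) of each of the 9 probes (y axis) in EDL, soleus and TA (3 against 3 arrays each). Filled points passed the test: 5 probes in EDL, 5 in soleus and 6 in TA, with the intervals of Fosl1, Jund and the proximal Fosl2 probe crossing 0 in each muscle.

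Slides and fractions coincide for EDL and soleus, so for those muscles slide and fraction cannot be told apart. Slide 4 holds the 3 TA nuclear samples and 1 TA cytoplasm sample. With a single cytoplasm sample, the differences on this slide are given without a test. Fos differed by 2.90, the distal Fosl2 probe by 2.27, Junb by 1.78, Fosb by 1.67, Atf3 by 0.83 and Jun by 0.62. Jund read 12.34 in that cytoplasm sample and 12.20 to 12.30 in TA nuclei. The proximal Fosl2 probe read 10.36 against 10.36 to 10.47, and Fosl1 4.32 against 3.04 to 3.98. With slide as a random block, 4 probes passed in EDL, 3 in soleus and 5 in TA, and Atf3 no longer passed over the 3 muscles (adjusted p = 0.264). With the 3 nuclear arrays of each muscle counted as a single sample, 1, 0 and 2 probes passed in EDL, soleus and TA and 5 over the 3 muscles. SAM, the method named in the study, gave 5, 5 and 2, the TA calls being Fos and the distal Fosl2 probe. Over all probes SAM called 14217 of 39769 in EDL, 13303 of 39139 in soleus and 4800 of 39373 in TA.

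Whether the fraction difference varied between muscles was tested by the interaction of muscle and fraction, which 1.57% of all probes passed. In limma 0 of the 9 member probes passed, while 2 had an unadjusted p below 0.05. These were the distal Fosl2 probe (adjusted p = 0.0753) and Fos (adjusted p = 0.177), both with a larger difference in TA. Without TA cytoplasm replicate 1 both passed (Fos, adjusted p = 0.0201; Fosl2, adjusted p = 0.0406), and the distal Fosl2 probe passed also without soleus cytoplasm replicate 2 (adjusted p = 0.0498) or 3 (adjusted p = 0.0186) and with dim spots kept (adjusted p = 0.0336).

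Between muscles, Fos, Fosb, Junb and the distal Fosl2 signal were lower in TA than in EDL and soleus, in both fractions. In nuclei 6 of the 9 member probes were lower in TA than in EDL and 0 were higher, where 17.4% of all probes were called, 9.81% lower and 7.59% higher. The median difference over the 9 probes was -1.02 in nuclei and -1.34 in cytoplasm, against -0.11 and 0.10 over all probes. Junb fell by 1.96 (3.88-fold, adjusted p = 0.00169), Fos by 1.53 (adjusted p = 0.0112), Fosb by 1.38 (adjusted p = 0.0129) and the distal Fosl2 probe by 1.02 (adjusted p = 0.00395). Atf3 fell by 1.39 (adjusted p = 0.0417) and Jun by 0.62 (adjusted p = 0.0409), and both lost the call in the fit with the replicate number as a block (adjusted p = 0.0606 and 0.0514) and without any 1 of the 9 nuclear samples. For each of the 6 probes every TA nuclear sample was below every EDL nuclear sample. The proximal Fosl2 probe, which did not pass, separated as well (10.36 to 10.47 in TA, 10.76 to 10.91 in EDL). Jund, which did not pass either, separated the other way (12.20 to 12.30 in TA, 11.94 to 12.09 in EDL). The share of all probes that separate was not determined. Against soleus nuclei 4 probes were lower in TA, where 19.6% of all probes were called, 11.9% lower and 7.75% higher: Junb by 1.72, Fos by 1.72, Fosb by 1.42 and distal Fosl2 by 1.11 log2 units.

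In cytoplasm 5 probes were lower in TA than in EDL (12.4% of all probes called, 7.33% lower and 5.12% higher): Fos fell by 3.01 (8.05-fold, adjusted p = 4.08e-04), the distal Fosl2 probe by 2.06 (adjusted p = 8.25e-05), Atf3 by 2.04 (adjusted p = 0.0111), Fosb by 1.78 (adjusted p = 0.00575) and Junb by 1.34 (adjusted p = 0.0170). Junb lost the call without EDL cytoplasm replicate 1 and without TA cytoplasm replicate 2 or 3. Jun differed by -0.57 (adjusted p = 0.0656). Against soleus cytoplasm the same 5 genes were lower (28.6% of all probes called, 12.8% lower and 15.8% higher), from Fos at -3.21 (9.23-fold) to Junb at -1.44. Jund and Fosl1 did not pass in any of these comparisons, and Jund differed between TA and EDL by 0.24 in nuclei (interval -0.41 to 0.88) and by -0.28 in cytoplasm (interval -0.93 to 0.36).

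**Figure D4:**
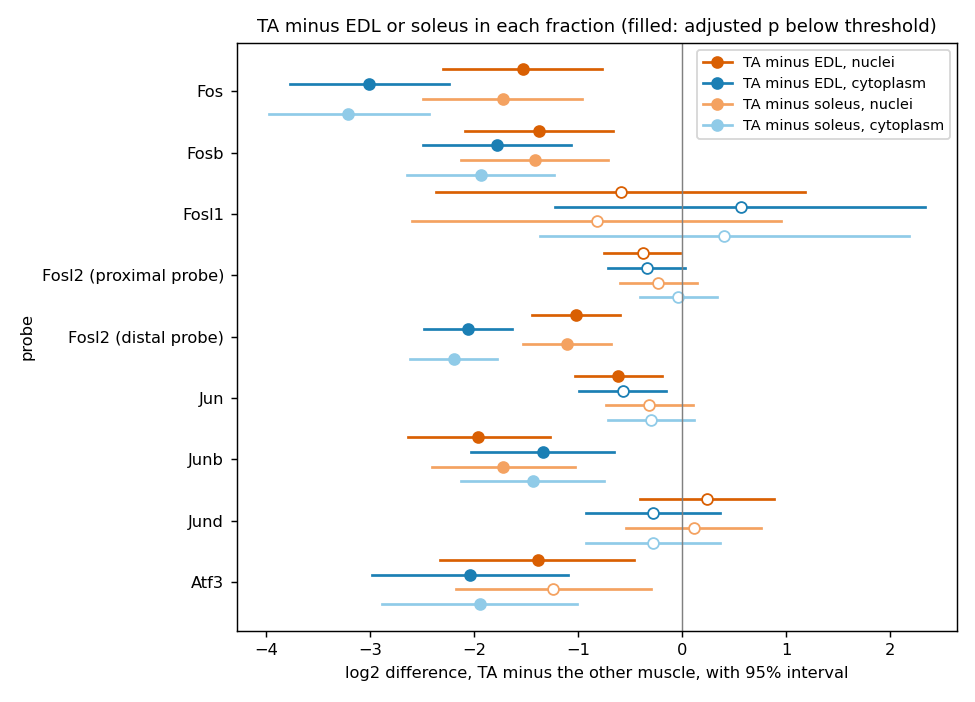
TA minus EDL and TA minus soleus (x axis, log2, with 95% interval) for each of the 9 probes (y axis) in nuclei and in cytoplasm (3 against 3 arrays each). Filled points passed the test: the points of Fos, Fosb, the distal Fosl2 probe and Junb lie below 0 in all 4 comparisons, from -3.21 to -1.02, while those of Jund and Fosl1 lie on both sides of 0.

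These comparisons rest on arrays of different slides. All nuclear arrays of TA lie on slide 4 and those of EDL and soleus on slide 2, so in nuclei slide and muscle cannot be told apart, and with slide as a random block 0 probes passed in limma against EDL or soleus. Without TA nuclei replicate 3 the count against EDL was 3, Fosb being lost as well (adjusted p = 0.0513). In cytoplasm the TA sample on slide 1 can be set beside the 6 EDL and soleus samples of that slide. Its Fos level of 7.69 lay below their range of 9.29 to 10.34, Fosb at 10.60 below 11.21 to 11.84, distal Fosl2 at 7.06 below 8.60 to 9.48, Jun at 10.48 below 11.15 to 11.64, Junb at 8.02 below 8.15 to 9.30, and Atf3 at 8.81 below 9.78 to 11.82. Jund, at 11.28, was also below its range of 11.62 to 12.77. The proximal Fosl2 probe, at 10.81, lay within its range of 10.36 to 11.00, and Fosl1, at 4.46, within 2.33 to 6.19.

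Cytoplasm samples varied more than nuclear ones, and the counts depended on which arrays were fitted together. In a fit on the 9 cytoplasm arrays alone 0 member probes passed for TA against EDL (Fos, adjusted p = 0.0745; distal Fosl2, adjusted p = 0.0575) and 3 for TA against soleus. In a fit on the 9 nuclear arrays alone 7 passed for TA against EDL and 7 against soleus. Markers of other cells also moved with TA: connective tissue markers were lower in TA than in EDL in cytoplasm for 5 of 8 genes and in nuclei for 2 of 8, Schwann cell markers for 4 of 6 and 3 of 6, and endothelial markers for 2 of 9 and 0 of 9. Smooth muscle and pericyte markers were higher in TA nuclei for 2 of 6 genes and lower for 0, with a log2 summed level of 13.88 to 14.43 against 11.88 to 11.90 in EDL nuclei, and in cytoplasm 1 was higher and 1 lower (10.63 to 13.91 against 11.05 to 11.35). Of 5 satellite cell markers tested 2 were higher and 2 lower in each fraction, with summed levels of 12.02 to 12.30 in TA nuclei against 9.30 to 9.39 in EDL nuclei and of 7.93 to 12.58 against 7.88 to 8.27 in cytoplasm. Of the macrophage markers 1 of 9 was lower in TA nuclei and 1 of 9 higher in TA cytoplasm, of 4 erythroid markers 1 was higher in each fraction, and neutrophil markers differed by -0.39 to -0.29 in nuclei and by -0.74 to 0.06 in cytoplasm without passing. RNAs known to stay in the nucleus were lower in TA than in EDL nuclei for 2 of 5 genes and higher for 0. Their log2 summed level was 12.46 to 12.51 in TA nuclei against 13.29 to 13.32 in EDL nuclei. In cytoplasm 1 was higher in TA than in EDL and 1 lower. The part of these cell types, or of these nuclear RNAs, in the AP-1 differences was not tested.

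Between soleus, a slow muscle, and EDL, a fast one, no member passed the test. In limma 0 of the 9 probes passed for soleus against EDL in nuclei and 0 in cytoplasm, where 1.56% of all probes passed in nuclei (0.978% higher, 0.579% lower) and 1.42% in cytoplasm (0.853% higher, 0.570% lower), and 0 had an unadjusted p below 0.05. The intervals allow a Fos difference of -0.57 to 0.96 in nuclei and in cytoplasm. Some probes separated in nuclei without passing. Soleus nuclei lay above EDL nuclei for Fos (11.35 to 11.43 against 11.15 to 11.25). They lay below for Junb (10.51 to 10.77 against 10.80 to 11.00) and the proximal Fosl2 probe (10.60 to 10.74 against 10.76 to 10.91). The share of all probes that separate was not determined. For Jun the soleus nuclei (12.19 to 12.28) also lay below the EDL nuclei (12.46 to 12.68), a difference of -0.30 with an interval of -0.71 to 0.11 (adjusted p = 0.756). In the fit on the 9 nuclear arrays alone that difference had an adjusted p of 0.0826.

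Over the 18 arrays the correlation of Fos was 0.98 with Fosb, 0.97 with the distal Fosl2 probe, 0.92 with Junb, 0.89 with Atf3 and 0.75 with Jun, and it was 0.14 with Jund and 0.47 with the proximal Fosl2 probe. These points share arrays, muscles and fractions, so the values describe the 6 groups rather than 18 independent samples. The mean standardised profile of 8 member probes, the brightest of each gene, was set against 23887 other genes. These 8 include Fosl1, which was near background, and the proximal Fosl2 probe, but not the distal one. The 5 genes most like this profile were Fip1l1 (0.962), Asb14 (0.960), Skil (0.955), Btg2 (0.952) and Adamts2 (0.942), and 86 genes were above 0.9. Of these Btg2 is an antiproliferative early response gene.

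Other immediate early genes, such as the Egr, Nr4a, Ier and Klf families, were higher in nuclei for 19 of 21 genes over the 3 muscles and lower for 0, with a median of 1.47. Ier3 rose by 2.50 (adjusted p = 5.14e-07) and Socs3, an inhibitor of cytokine signalling, by 2.40 (adjusted p = 3.25e-06). In TA against EDL 14 of the 21 were lower in cytoplasm and 9 in nuclei, and 0 were higher in either.

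Dimer partners and related bZIP factors rose in nuclei for 14 of 21 genes and fell for 0, with a median of 0.41. Cebpd, a C/EBP factor of the acute response, rose by 1.64 (adjusted p = 1.91e-06) and Maff, a small Maf protein, by 1.57 (adjusted p = 1.72e-07). Of the MAP kinase cascade, which phosphorylates Jun proteins and the factors that drive Fos, 9 of 20 genes were higher in nuclei and 5 lower, with a median of 0.21. The kinase Map3k1 rose by 1.48 (adjusted p = 5.74e-07), while Map3k5 fell by 1.99 (adjusted p = 2.26e-08) and Map2k7 by 1.50 (adjusted p = 5.53e-07).

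MAP kinase phosphatases, which end the signal, were higher for 4 of 10 and lower for 1, Dusp1 rising by 1.68 (adjusted p = 1.06e-09) and Dusp9 falling by 1.26 (adjusted p = 0.00202). Serum response factor and its ternary complex partners were higher for 3 of 6 genes tested and lower for 1. Its coactivator Mkl2 rose by 0.88 and Elk3 fell by 1.05. Genes known as AP-1 targets were higher in nuclei for 6 of 15 tested and lower for 4, with a median of 0.29. The protease Mmp14 rose by 2.13 and the protease inhibitor Timp1 by 1.57, while the adhesion receptor Cd44 fell by 1.10 and Hmox1, which degrades heme, by 0.98.

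Factors that degrade AU-rich mRNA were higher in nuclei for 8 of 14 and lower for 1, Zfp36 rising by 1.74 (adjusted p = 4.62e-07) and Cnot1 by 1.54 (adjusted p = 1.77e-06). Exosc9 fell by 0.30 (adjusted p = 0.0115). Inducible heat shock genes were higher for 8 of 8 tested, with a median of 0.86, led by Hsp90aa1 at 1.19 and Hsph1 at 1.14. These counts stand against 31.2% of all probes higher and 38.6% lower.

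**Figure D5:**
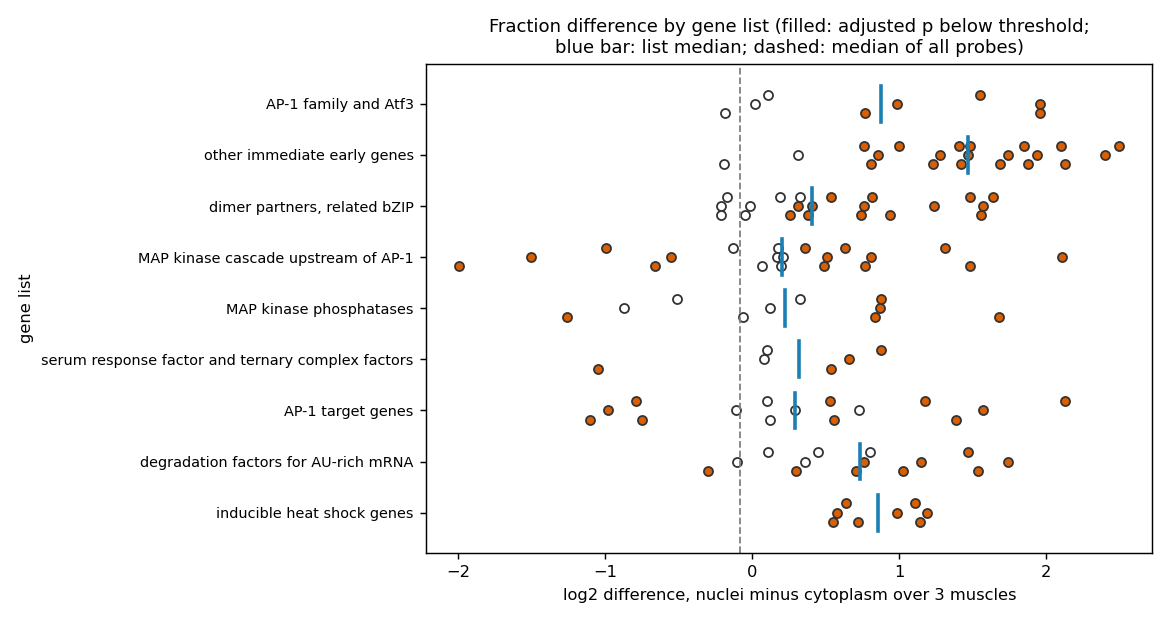
Nuclei-minus-cytoplasm difference over the 3 muscles (x axis, log2) of each gene's brightest probe, by gene list (y axis). Filled points passed the test, blue bars are list medians and the dashed line is the median of all probes at -0.08: the other immediate early genes have a median of 1.47, the AP-1 family and Atf3, with the proximal probe for Fosl2, 0.88.

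Cell type markers showed that the fractions differed beyond early response genes. Myofiber markers were higher in nuclei for 11 of 13 genes, endothelial for 9 of 9, connective tissue for 7 of 8, Schwann cell for 5 of 6, smooth muscle and pericyte for 3 of 6 (1 lower) and satellite cell for 2 of 4 tested. Macrophage markers were lower for 5 of 9, erythroid for 2 of 4 and neutrophil for 1 of 3, with 0 higher in each. The log2 of the summed endothelial level was 12.63 to 12.75 in EDL nuclei and 11.74 to 11.83 in EDL cytoplasm, 12.49 to 12.56 and 11.68 to 12.49 in soleus, and 12.79 to 13.00 and 10.80 to 11.55 in TA. Its part in the AP-1 differences was not tested.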

How the data were processed

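Agilent single-colour arrays of 18 samples were used. Per the labels and the study's methods, the authors extracted intensity values with Agilent Feature Extraction 10.7.3.1, which subtracts background within the array; the deposited intensity column is the processed signal per spot on a linear scale. The file headers give mouse build mm9. The deposited value table holds no member spot and was not used.

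Control spots were left out. As in the study's methods, spots not positive and significant were set missing. Spots marked as outliers were also set missing, a step those methods do not state (16.13% of probe values were missing), log2 values were quantile normalised over the 18 arrays, and spots of a probe were averaged. Probes with 2 or more values in each group compared were fitted with limma 3.58.1 in R 4.3.3 as 6 group means sharing one spread (12 residual and 3.27 prior degrees of freedom), with Benjamini-Hochberg adjustment over all probes tested; the fit was tested on simulated data. The number of arrays limits precision. The labels give replicates of a group to different mice, except for a mouse shared by TA cytoplasm 1 and 2.

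The members and gene lists were chosen with earlier results of these data known. All member probes are named; from other lists, up to 2 genes per direction with the largest change past the threshold, by each gene's brightest probe, and the 5 genes most like the members. One gene that this rule names is not reported here. By the labels, EDL and soleus samples of one number share their mice; their deviations from group means correlated by -0.11 to 0.10, and nuclei with cytoplasm by -0.09 to 0.13.

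The scaling of arrays shifts all differences: the median over all probes, nuclei minus cytoplasm, was -0.08, against -0.30 with 75th percentile scaling and 0.42 with none, where 70.1% of calls were higher in nuclei against 44.8%. Sequences are from RefSeq (GRCm38.p6), and all 9 probes matched by accession. Exon and coding positions of the probes were not determined.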

Additional observations from a re-analysis of the deposited data

How the results depend on the processing

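The 6 member probes higher in nuclei over the 3 muscles numbered 5 to 8 under every alternative run and 6 without any single sample. In EDL the count of 5 fell to 1 when nuclear arrays counted as 1 sample per muscle. In soleus the count of 5 became 8 without scaling, 3 with slide as a random block and 0 with nuclear arrays as 1 sample, and in TA the count of 6 became 2 with nuclear arrays as 1 sample and 2 with SAM. The interaction count of 0 became 1 without scaling, 1 with dim spots kept, and 0 to 2 on leaving out single samples. For TA against EDL in nuclei the count of 6 became 0 with slide as a random block, 0 with nuclear arrays as 1 sample, and 3 to 6 on leaving out single samples. For TA against EDL in cytoplasm the count of 5 became 3 with slide as a random block, 0 with nuclear arrays as 1 sample, 0 on the 9 cytoplasm arrays and 0 on slide 1. For TA against soleus in nuclei the count of 4 became 7 without scaling, 0 with slide as a random block, 0 with nuclear arrays as 1 sample and 7 on the 9 nuclear arrays. For TA against soleus in cytoplasm the count of 5 became 3 with nuclear arrays as 1 sample, 3 on the 9 cytoplasm arrays and 0 on slide 1. The cause of these changes was not tested, and the fits on the 9 arrays of a fraction or on slide 1 also used fewer arrays. The proximal Fosl2 probe in EDL, at -0.01, became 0.72 without scaling (adjusted p = 0.00506), where the median over all probes was 0.35 in place of -0.05. Over the 3 muscles this probe passed without scaling at 0.81 (adjusted p = 5.44e-06), as did Jund at 0.77 (adjusted p = 0.00261). With another background correction the proximal Fosl2 probe passed at 0.17 (adjusted p = 0.0485).

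With the replicate block, the 5, 5 and 6 calls in EDL, soleus and TA and the 6 over the 3 muscles stayed at those counts, and the calls that it ended were those of Jun and Atf3 for TA against EDL in nuclei (4 in place of 6). The shift between the Fosl2 probes was 1.04 to 1.44 under other scalings, background corrections and filters and 1.33 to 1.53 without single samples. The fits on 1 fraction, on slide 1 or on slide 4, the contrast between the Fosl2 probes and its alternatives were chosen after seeing the data. The deposited value table could give no value, as it holds no member spot. Fosl1 is limited by signal near background, and the pooled spread is too narrow for cytoplasm and too wide for nuclei.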
